A study of Mus musculus with 6 samples.

Results

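The genes described here encode receptors by which cells of the innate immune system recognise microbes, damaged cells and antibody: the Toll-like receptors (TLRs), the NLR proteins, the C-type lectins (Clec), the sialic acid-binding Siglecs, the CD300 family and the Fc receptors. They were taken by their symbol in the array annotation (Tlr followed by a digit, Nlrp, Nlrc, Nlrx, Clec, Siglec, Cd300, Fcgr or Fcer), which gave 74 of 18193 genes with a name of their own, each read by its probe set with the highest mean signal. The families held 11 TLRs, 18 NLRs, 26 C-type lectins, 5 Siglecs, 6 CD300 genes and 8 Fc receptor genes. Of the 74, 42 were bright enough to be tested and 32 were not.

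RNA came from epididymal white adipose tissue, 1 Affymetrix array for each mouse. In the 3 CNOT3KO mice, Cnot3 had been deleted with a Cre recombinase under the adiponectin promoter, a promoter of fat cells. Cnot3 encodes a subunit of CCR4-NOT, which removes poly(A) tails and so starts the decay of mRNAs. The other 3 mice were wild type (WT). All were of the C57BL/6 strain, aged 8 weeks, and nothing in the labels says that the WT mice carried the Cre or a floxed allele. The tissue was whole, so the receptors were measured in adipocytes together with every blood, vessel and connective tissue cell of the fat pad.

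Innate receptors sit on macrophages, dendritic cells, mast cells and other sentinels, and some are made by vessel walls or by adipocytes. TLRs bind microbial lipids, proteins or nucleic acids at the cell surface or in endosomes and signal through the adaptors MyD88 and TRIF to NF-kB and interferon regulatory factors. Many Fc receptors, lectins and CD300 proteins carry no signalling part of their own and work through small partners, Fcer1g or Tyrobp, whose ITAM motifs recruit the kinase Syk, while others carry an inhibitory ITIM motif that recruits phosphatases. Macrophages that take up dying adipocytes in fat are known to carry several of these receptors.

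Signals are MAS5 values on a linear scale, and the arrays had been brought to a common level. Differences are CNOT3KO minus WT of log2(signal + 22.5), fold values are on the same scale, and a gene was called higher or lower where the limma p-value, adjusted over all 12769 tested genes, lay below 0.05. Cnot3 read 194, 229 and 179 in the CNOT3KO mice, against 305, 293 and 305 in the WT mice (log2 difference -0.54, SE 0.14, limma adjusted p = 0.0131), so the CNOT3KO group lay wholly below the WT group. Adipoq, the gene for adiponectin and a defining adipocyte gene, read 24488, 24292 and 32021 in the CNOT3KO mice, against 21949.6, 29457 and 34975 in the WT mice, and did not pass (limma adjusted p = 0.742). Markers of other cells changed as well. Of 18 macrophage markers, 13 were higher and 1, Mertk, was lower. Cd163 (log2 difference -0.71), Timd4 (-0.39), Maf (-0.16) and Cd14 (0.18) did not pass. In Cd163 every CNOT3KO mouse lay below every WT mouse. The Mertk call was lost without CNOT3KO mouse 1 or 3 or WT mouse 2 or 3 (log2 difference -0.45 to -0.29, against -0.41). It was lost too with no filter on dim genes and with eBayes without a trend. Marco, among the 13, was bright enough to test only through the CNOT3KO mice (mean 99.7, against 12.5 in WT). The summed signal of the 18 markers was 84266 to 115808 in CNOT3KO and 43510 to 51932 in WT. Of 12 endothelial markers, 11 were lower, with sums of 5355 to 6637 in CNOT3KO and 12911 to 13620 in WT. Among these, Tie1 was bright enough to test only through the WT mice (mean 114, against 47.1 in CNOT3KO). Fcgr1 is among the macrophage markers and Clec14a among the endothelial ones, and in each of these lists no marker was at the lowest possible value. In whole tissue a change in the number of cells of a type and a change in RNA per cell cannot be told apart.

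Most of the tested receptors were higher in the fat pads of the CNOT3KO mice. Of the 42 tested, 23 were higher, 4 were lower and 15 did not pass, where 40.1% of all tested genes were called, 23.2% as higher and 16.9% as lower. The same shares are the background for each count by family, partner list or marker set. A call together with a difference of at least 2-fold was seen in 17 higher and 2 lower receptors, against 6.49% and 3.33% of all tested genes. The median log2 difference was 0.66 for the tested receptors and 0.02 for all tested genes. In all 23 higher receptors and in 6 others the 3 CNOT3KO mice lay wholly on one side of the WT mice, above them in 23 and below in 6, where 29.0% of all tested genes lay above and 22.7% below. After the tested genes of every array were set to a common median, 22 receptors were higher and 4 lower, while the balance over all genes turned to 2318 higher and 2800 lower, against 2959 and 2156 without centring.

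**Figure D1:**
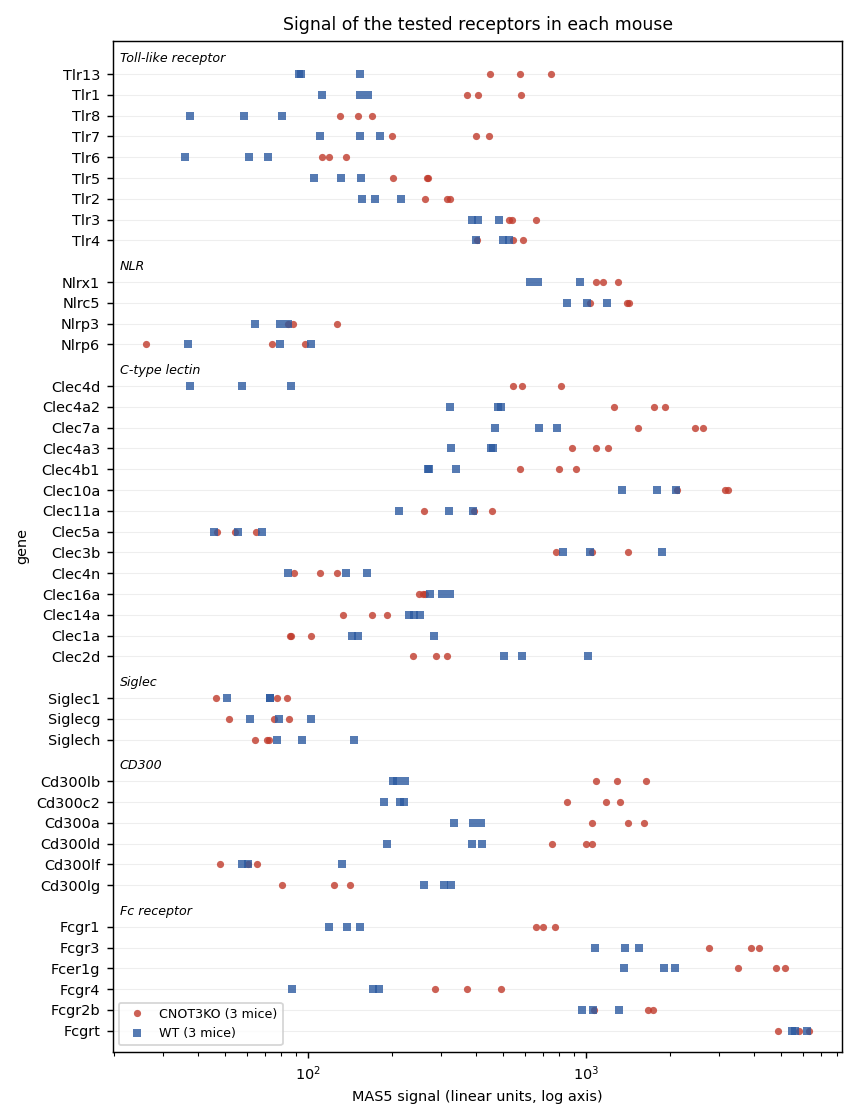
MAS5 signal (linear units on a log axis) of the 42 tested receptors in each mouse, by family and, within a family, by the size of the difference. Red circles are the 3 CNOT3KO mice and blue squares the 3 WT mice, and in 23 genes every red circle lies to the right of every blue square.

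The steepest rise was in Clec4d, a C-type lectin of myeloid cells (also called MCL) that binds mycobacterial glycolipid. It read 545, 811 and 585 in the CNOT3KO mice, against 57.8, 37.7 and 86.6 in the WT mice (log2 difference 3.03, SE 0.24, limma adjusted p = 2.7e-05), which is 8.16-fold. Cd300lb, an activating member of the CD300 family, read 1286, 1646 and 1079.8 in the CNOT3KO mice, against 209, 202 and 223 in the WT mice (5.73-fold). Its CNOT3KO values were spread more widely than its WT values and lay far above them. Cd300c2, also activating, read 1173, 1323 and 855 in the CNOT3KO mice, against 187, 214 and 221 in the WT mice (4.89-fold). Fcgr1, the high-affinity receptor for IgG, read 769, 659.6 and 696 in the CNOT3KO mice, against 154, 118 and 138 in the WT mice (4.6-fold, log2 difference 2.20). A second Fcgr1 probe set was also called higher, by less (log2 difference 0.68), and the mean of both gave 1.44. Tlr13, which recognises bacterial ribosomal RNA in mice, read 577, 746 and 449 in the CNOT3KO mice, against 94.2, 92.8 and 154 in the WT mice (4.51-fold). In each of these genes the lowest CNOT3KO mouse was above the highest WT mouse by a wide margin.

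The promoters of these genes, the 5 with the largest rise by their brightest probe set, are shown because PU.1, a transcription factor of myeloid cells, is known to act at many such genes. Each window spans 300 bases around an annotated start, most of them before it, from RefSeq (GRCm38.p6), and is printed 5′ to 3′ on the gene's strand. Capitals mark GAGGAA, the core that PU.1 binds, on either strand, so that its reverse complement TTCCTC is marked too.
Clec4d (chr6:123261857-123262156, + strand): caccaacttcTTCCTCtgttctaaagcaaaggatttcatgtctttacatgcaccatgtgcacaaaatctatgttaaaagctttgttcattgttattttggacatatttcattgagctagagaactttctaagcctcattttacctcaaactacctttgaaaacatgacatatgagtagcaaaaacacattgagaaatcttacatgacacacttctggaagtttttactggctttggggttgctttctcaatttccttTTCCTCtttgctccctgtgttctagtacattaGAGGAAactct
Cd300lb (chr11:114934322-114934621, - strand): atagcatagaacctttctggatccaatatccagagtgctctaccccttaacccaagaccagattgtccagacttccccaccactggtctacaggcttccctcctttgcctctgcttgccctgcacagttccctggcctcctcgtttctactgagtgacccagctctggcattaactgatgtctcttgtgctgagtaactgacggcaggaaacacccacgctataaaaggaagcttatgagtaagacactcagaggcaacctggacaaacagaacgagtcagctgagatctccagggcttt
Cd300c2 (chr11:115001831-115002130, - strand): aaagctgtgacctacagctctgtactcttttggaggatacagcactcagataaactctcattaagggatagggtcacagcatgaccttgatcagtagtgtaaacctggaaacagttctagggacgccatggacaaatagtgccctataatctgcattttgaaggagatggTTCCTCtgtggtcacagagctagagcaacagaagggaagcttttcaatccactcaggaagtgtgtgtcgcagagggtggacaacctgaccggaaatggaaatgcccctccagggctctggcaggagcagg
Fcgr1 (chr3:96293920-96294219, - strand): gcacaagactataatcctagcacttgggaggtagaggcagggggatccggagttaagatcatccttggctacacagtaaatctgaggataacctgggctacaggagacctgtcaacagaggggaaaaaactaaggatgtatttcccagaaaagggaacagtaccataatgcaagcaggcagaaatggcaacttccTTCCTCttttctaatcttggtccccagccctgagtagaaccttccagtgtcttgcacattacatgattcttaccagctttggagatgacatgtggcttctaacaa
Tlr13 (chrX:106143025-106143324, + strand): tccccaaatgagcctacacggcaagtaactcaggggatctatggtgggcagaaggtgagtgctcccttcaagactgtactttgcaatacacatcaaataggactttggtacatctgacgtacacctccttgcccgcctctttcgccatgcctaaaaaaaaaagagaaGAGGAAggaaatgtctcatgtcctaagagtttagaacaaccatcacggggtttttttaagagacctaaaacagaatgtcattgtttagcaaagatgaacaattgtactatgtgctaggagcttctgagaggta
The Clec4d window held the core 3 times, those of Cd300c2, Fcgr1 and Tlr13 held it 1 time each, and that of Cd300lb did not hold these letters. The AP-1 motif TGANTCA and the E-box CACGTG, searched on both strands, were in none of the 5 windows. Windows were matched for 62 of the 74 genes. GAGGAA was found in 15 of 27 windows of the higher receptors (55.6%), in 7 of 12 windows of the receptors that did not pass (58.3%), in 1 of 2 windows of the lower receptors (50.0%), in 9 of 35 windows of those too dim to test (25.7%), and in 28.3% of 32817 promoter windows of all genes. The shares of the higher receptors and of those that did not pass lie side by side, and a match describes the letters only.

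Among the TLRs, 8 of 9 tested genes were higher and 0 were lower. They include 4 of 5 receptors of the cell surface (Tlr1, Tlr2, Tlr5 and Tlr6) and all 4 tested receptors of endosomes (Tlr3, Tlr7, Tlr8 and Tlr13). Tlr1, which pairs with TLR2 to bind bacterial lipopeptides, read 409, 583 and 372 in the CNOT3KO mice, against 165, 112 and 154 in the WT mice (2.85-fold, log2 difference 1.51, SE 0.20, limma adjusted p = 3.7e-04). Tlr6, the other partner of TLR2, read 137, 119 and 112 in the CNOT3KO mice, against 36.1, 61.1 and 71.7 in the WT mice. Tlr2 itself read 317, 325 and 262 in the CNOT3KO mice, against 174, 156 and 216 in the WT mice. The CNOT3KO mice were above the WT mice in each of these genes, with log2 differences of 1.51, 0.90 and 0.67. Tlr5, the flagellin receptor, read 202, 267 and 269 in the CNOT3KO mice, against 131, 105 and 154 in the WT mice (1.76-fold, limma adjusted p = 0.00657).

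Tlr7 and Tlr8, neighbours on the X chromosome whose proteins bind RNA in endosomes, were both higher. Tlr7 read 401, 445 and 200.2 in the CNOT3KO mice, against 181, 110.2 and 153 in the WT mice (log2 difference 1.07, SE 0.28, limma adjusted p = 0.0131). CNOT3KO mouse 3 lay close to the WT mice, and the call was lost without CNOT3KO mouse 1 (log2 difference 0.94) or without WT mouse 2 (0.90). The other Tlr7 probe sets were too dim to test and showed no rise, with means of 39.4 and 31.6 in CNOT3KO, against 42.1 and 38.4 in WT. Tlr8 read 129.7, 151 and 169.9 in the CNOT3KO mice, against 80.7, 37.6 and 58.5 in the WT mice (log2 difference 1.11, SE 0.23, limma adjusted p = 0.00463). Tlr6 and Tlr8 were dim, and with an offset at the median of all values their log2 differences were 0.55 and 0.70, still called. Tlr3, the receptor for duplex RNA, read 659.5, 539 and 528 in the CNOT3KO mice, against 484, 389 and 407 in the WT mice (log2 difference 0.41, SE 0.14, limma adjusted p = 0.0394). The other Tlr3 probe set had a log2 difference of 0.07 and was not called. The Tlr3 call was lost with quantile normalization (0.38), with arrays centred (0.31), with all probe sets averaged (0.24), with no filter on dim genes (limma adjusted p = 0.0615), and without CNOT3KO mouse 1 (0.31) or 2 (0.45) or WT mouse 2 (0.35) or 3 (0.38).

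Tlr4, the receptor for lipopolysaccharide, did not pass. It read 590.1, 546 and 404 in the CNOT3KO mice, against 403, 527 and 501 in the WT mice, and the groups overlapped. Its log2 difference of 0.09 had a 95% interval of -0.28 to 0.47, whereas the interval of Tlr1 was 1.07 to 1.96. The other tested Tlr4 probe sets gave 0.29 and 0.39 and were not called either. Tlr9, a sensor of microbial DNA, and Tlr12 were too dim to test. Tlr9 read 19.8, 6.4 and 9.37 in the CNOT3KO mice, against 30.4, 41.2 and 21.8 in the WT mice, so the CNOT3KO mice lay below the WT mice, but with no filter on dim genes it was not called (limma adjusted p = 0.0684).

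The proteins that help TLRs at the membrane were measured beside them. Of 11 tested accessory and co-receptor genes 5 were higher, 0 lower and 6 did not pass. Ly96, the MD-2 subunit that lets TLR4 bind lipopolysaccharide, was 2.1-fold (804 ± 77.1 in CNOT3KO and 371 ± 48 in WT, SD, n = 3 each, limma adjusted p = 2.9e-04). Cd180, a TLR-like protein, was 2.01-fold and its partner Ly86 2.36-fold, and Lbp, which carries lipopolysaccharide, 1.35-fold. With all its probe sets averaged Lbp was instead called lower (log2 difference -0.45, against 0.43). Cd68, a lysosomal glycoprotein of macrophages that the list also held, was 7.61-fold, and it and Cd14 are also among the macrophage markers. Cd14, which hands lipopolysaccharide to TLR4, read 1236, 1443 and 1140.5 in the CNOT3KO mice, against 985, 1096 and 1295 in the WT mice (log2 difference 0.18, 95% interval -0.13 to 0.48) and did not pass, nor did Unc93b1, which carries TLRs to endosomes (log2 difference 0.39), which passed without WT mouse 1 (0.62).

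Downstream of the TLRs, 11 of 29 tested adaptor, kinase and NF-kB genes were higher, 3 were lower and 15 did not pass. Myd88, the adaptor shared by most TLRs, read 1435, 1358 and 1348 in the CNOT3KO mice, against 842, 726 and 757 in the WT mice (log2 difference 0.82, SE 0.11, limma adjusted p = 3.5e-04). Irf8, a transcription factor of myeloid cells, was 2.56-fold, Ikbke, a kinase of the interferon branch, 2.37-fold, and Bcl3, a nuclear partner of NF-kB, 2.23-fold, the last losing its call without CNOT3KO mouse 1 (log2 difference 0.94, against 1.16). The lower genes were Irak1, a kinase that binds MyD88, at 0.598 of WT, Map3k7, the kinase TAK1, at 0.729, and Tnfaip3, the NF-kB inhibitor A20, at 0.723. Irak1 had a log2 difference of -0.45 in place of -0.74 with another probe set. Map3k7 lost its call with all probe sets averaged (-0.09, against -0.46) and without WT mouse 1 (-0.44) or 2 (-0.44) or CNOT3KO mouse 3 (-0.34). Tnfaip3 lost its call without CNOT3KO mouse 2 (-0.48) or 3 (-0.36) or WT mouse 2 (-0.34) or 3 (-0.49), with no filter on dim genes (limma adjusted p = 0.0573) and with eBayes without a trend (limma adjusted p = 0.0555). The NF-kB subunit Rela read 2452 ± 224 in CNOT3KO and 2347 ± 61.7 in WT (SD, n = 3 each) and did not pass.

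Of 6 tested Fc receptor genes 4 were higher (Fcgr1, Fcgr3, Fcgr4 and Fcer1g), 0 were lower and 2 (Fcgr2b and Fcgrt) did not pass. Fcer1g, the ITAM-bearing gamma chain that several Fc receptors and lectins share, read 4809, 5174 and 3513 in the CNOT3KO mice, against 1898, 1362 and 2077 in the WT mice (log2 difference 1.33, SE 0.18, limma adjusted p = 4.9e-04). Fcgr3, an activating receptor for IgG complexes, read 3928, 4182 and 2767 in the CNOT3KO mice, against 1384, 1075 and 1542 in the WT mice (log2 difference 1.42, SE 0.18, limma adjusted p = 2.9e-04). Fcgr4, a further activating IgG receptor of mouse myeloid cells, read 492, 374 and 286 in the CNOT3KO mice, against 171, 87.4 and 179.6 in the WT mice (log2 difference 1.29, SE 0.26, limma adjusted p = 0.00397). In these genes the CNOT3KO mice were 2.51-fold, 2.68-fold and 2.44-fold of WT, and in each CNOT3KO mouse 3 was the lowest of its group and WT mouse 2 the lowest of the WT mice.

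Fcgr2b, the inhibitory IgG receptor, lies beside Fcgr3 and Fcgr4 in the genome. It read 1742, 1662 and 1068 in the CNOT3KO mice, against 962, 1053 and 1309 in the WT mice, with CNOT3KO mouse 3 among the WT mice. Its log2 difference of 0.40 had a 95% interval of -0.03 to 0.83 (limma adjusted p = 0.124), and that of Fcgr3 was 1.02 to 1.82. Without CNOT3KO mouse 3 it passed, at 0.62, and with array weights at 0.60. Its other tested probe sets gave 0.17, 0.09 and -0.02, none of them called. Fcgrt, the neonatal Fc receptor that recycles IgG, read 5834, 6338 and 4893 in the CNOT3KO mice, against 5485, 5612 and 6210.3 in the WT mice, with a 95% interval of -0.29 to 0.24 for its log2 difference. Whether the differences of Fcgr2b and Fcgr3 are unequal was not tested as such.

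Fcer1a, the alpha chain of the IgE receptor of mast cells, was too dim for the test, at 101, 62.8 and 46.1 in the CNOT3KO mice, against 20.9, 1.29 and 19.2 in the WT mice. The groups did not overlap, and with no filter on dim genes it was called higher (log2 difference 1.36, limma adjusted p = 0.0137). Of 6 tested mast cell markers, the proteases Mcpt4, Cpa3 and Cma1 were higher and Kit and Gata2 were lower. The Mcpt4 call was lost without CNOT3KO mouse 1 (log2 difference 1.41) and the Kit call without WT mouse 1 (-0.63) or 2 (-0.65). Mcpt4 was bright enough to test only through the CNOT3KO mice (mean 123, against 17.6 in WT). Its log2 difference of 1.75 became 2.80 with an offset of 1 and 0.93 with an offset at the median of all values. The summed signal of the 11 markers, Fcer1a among them, overlapped between groups (1263 to 2178 in CNOT3KO and 1266 to 1333 in WT). Fcer2a, the IgE receptor of B cells, was too dim to test.

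**Figure D2:**
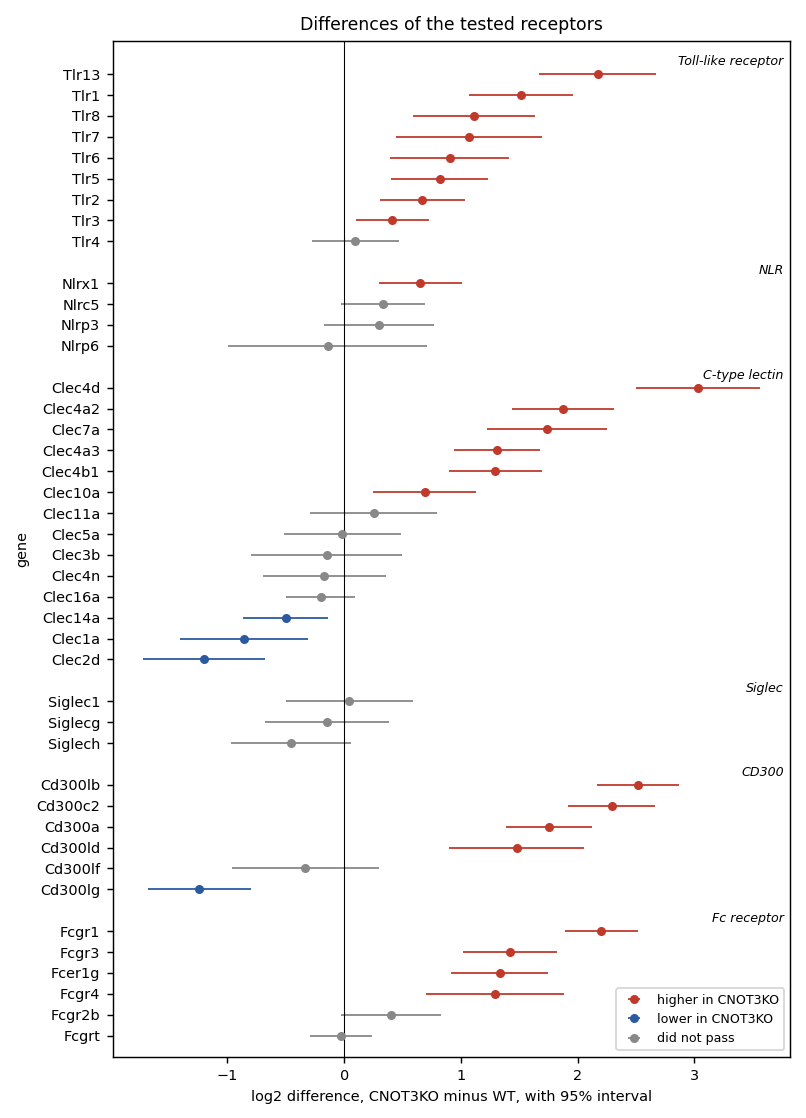
Log2 difference, CNOT3KO minus WT, of each tested receptor with its 95% interval from limma, by family. Red marks the 23 genes called higher in CNOT3KO, blue the 4 called lower and grey the 15 that did not pass; Clec4d lies farthest to the right at 3.03 and Cd300lg farthest to the left at -1.24.

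All 6 CD300 genes could be tested. The proteins bind lipids that dying cells expose, and some activate while others inhibit the cell that carries them. Cd300a, Cd300lb, Cd300ld and Cd300c2, which neighbour each other on chromosome 11, were all higher. Cd300a, an inhibitory receptor for phosphatidylserine and phosphatidylethanolamine, read 1418, 1608 and 1051 in the CNOT3KO mice, against 392, 336 and 419.6 in the WT mice (log2 difference 1.75, SE 0.16, limma adjusted p = 6.5e-05). Cd300ld, an activating receptor, read 997, 1048 and 753 in the CNOT3KO mice, against 421, 191 and 389 in the WT mice (log2 difference 1.48, SE 0.26, limma adjusted p = 0.0017). In both the CNOT3KO mice were above all WT mice. Cd300lf, an inhibitory receptor for phosphatidylserine and ceramide, read 65.4, 48.3 and 60.6 in the CNOT3KO mice, against 60.8, 132 and 57.9 in the WT mice. The groups overlapped, with 1 WT mouse above the rest, and it did not pass (limma adjusted p = 0.38).

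Cd300lg went the other way. It encodes nepmucin, which is made by the endothelium of small vessels, and read 80.7, 123 and 141 in the CNOT3KO mice, against 308, 325 and 260.5 in the WT mice (log2 difference -1.24, SE 0.20, limma adjusted p = 0.00105). That is 0.423 of WT, with no overlap between groups. The endothelial markers were lower in the same mice, and their part in this fall was not tested.

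Among the C-type lectins, calls went in both directions, 6 of 14 tested genes higher, 3 lower and 5 not past the test. Of all tested genes 23.2% were higher and 16.9% lower, so the share of lower lectins was near that of all genes. The Dectin-2 cluster on chromosome 6, where Clec4a3, Clec4b1, Clec4a2, Clec4n, Clec4d and Clec4e lie in this order, held 4 of the 6. Clec4a2, the ITIM-bearing lectin DCIR, read 1749, 1926 and 1260.5 in the CNOT3KO mice, against 481, 324 and 493 in the WT mice (log2 difference 1.87, SE 0.20, limma adjusted p = 1.1e-04). Clec4a3 read 1194, 1088 and 888 in the CNOT3KO mice, against 456, 326 and 462 in the WT mice (2.48-fold). Clec4b1 read 919, 795 and 578 in the CNOT3KO mice, against 269.6, 272 and 341 in the WT mice (2.45-fold). The CNOT3KO mice lay above the WT mice in all of these, and a second Clec4a2 probe set was also called higher (log2 difference 0.80). These genes are close copies of each other, and the Clec4d and Clec4n probe sets belong to classes (names ending in _s_at) that can bind several transcripts, so signals may be shared between them.

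Clec4n, the fungal mannan receptor Dectin-2, did not pass. It read 127, 89 and 110.2 in the CNOT3KO mice, against 163, 84.9 and 136 in the WT mice, with overlapping groups and a 95% interval of -0.70 to 0.35 for the log2 difference, and its second probe set (0.38) was not called either. Clec4e, the receptor Mincle, which works together with the Clec4d protein, was too dim to test. It read 34.8, 19.7 and 32 in the CNOT3KO mice, against 3.38, 19.8 and 2.04 in the WT mice, and with no filter on dim genes it was not called (log2 difference 0.76, limma adjusted p = 0.0579).

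Clec7a, the beta-glucan receptor Dectin-1, read 2465, 2631 and 1531 in the CNOT3KO mice, against 784, 469.5 and 674 in the WT mice (log2 difference 1.74, SE 0.23, limma adjusted p = 3.8e-04), or 3.34-fold. Clec10a, a galactose-binding lectin of macrophages and dendritic cells, read 3237, 3168 and 2117 in the CNOT3KO mice, against 1349.5, 1792 and 2107 in the WT mice (log2 difference 0.69, SE 0.20, limma adjusted p = 0.0197). Here CNOT3KO mouse 3 and WT mouse 3 nearly met. The Clec10a call was lost without CNOT3KO mouse 1 (0.58) or 2 (0.60) and without WT mouse 1 (0.52) or 2 (0.72).

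Clec2d, Clec1a and Clec14a were lower. Clec2d encodes a ligand of the inhibitory NK cell receptor NKR-P1B and is made by many cell types. It read 317, 239 and 287 in the CNOT3KO mice, against 586, 1014 and 504 in the WT mice (log2 difference -1.20, SE 0.23, limma adjusted p = 0.00307), which is 0.436 of WT, and WT mouse 2 was far above the other mice of its group. Clec1a, a lectin of endothelial and myeloid cells that binds fungal melanin, read 85.8, 102 and 86.6 in the CNOT3KO mice, against 284, 151 and 143 in the WT mice (log2 difference -0.86, SE 0.24, limma adjusted p = 0.0193). Its other probe set gave a log2 difference of -0.21 that was not called, the mean of both gave -0.54, and the call was lost without CNOT3KO mouse 1 (-0.82). Clec14a, an adhesion protein of endothelium, read 133, 169 and 192 in the CNOT3KO mice, against 230.1, 239 and 253 in the WT mice (log2 difference -0.50, SE 0.16, limma adjusted p = 0.0336). Without CNOT3KO mouse 1 it read -0.38, and its call was lost without any 1 mouse other than CNOT3KO mouse 3 (-0.53 to -0.38), with quantile normalization (-0.43) and with no filter on dim genes (limma adjusted p = 0.0672). The endothelial markers, Clec14a aside, were lower beside these genes in 10 of 11 cases.

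The remaining tested lectins did not pass. Clec3b, the plasminogen-binding protein tetranectin, read 1049, 779 and 1412 in the CNOT3KO mice, against 1029, 825 and 1867 in the WT mice. Clec11a, a secreted growth factor of bone and marrow, read 394, 261 and 457 in the CNOT3KO mice, against 393, 321 and 213 in the WT mice. The groups overlapped widely in both. Clec16a, a regulator of mitophagy that carries the name but is no lectin receptor, read 251, 258 and 262 in the CNOT3KO mice, against 323, 302 and 274 in the WT mice. All 3 CNOT3KO mice were below the WT mice, by little (log2 difference -0.20, 95% interval -0.50 to 0.09). Clec5a, a Tyrobp-coupled receptor, read 54.7, 47 and 64.7 in the CNOT3KO mice, against 45.9, 55.7 and 68 in the WT mice, with overlapping groups.

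None of the Siglecs passed, and 3 of 5 could be tested. Siglec1, the sialoadhesin of some tissue macrophages, read 77.3, 83.6 and 46.7 in the CNOT3KO mice, against 72.7, 73 and 51.1 in the WT mice. Siglecg, an inhibitory receptor of B cells, read 85.3, 75 and 51.7 in the CNOT3KO mice, against 78.6, 102 and 61.6 in the WT mice. The groups overlapped in both. Siglech, a receptor of plasmacytoid dendritic cells, read 70.8, 64.5 and 72.2 in the CNOT3KO mice, against 94.7, 77.4 and 146 in the WT mice, with every CNOT3KO mouse below every WT mouse but a 95% interval of -0.97 to 0.06 for the log2 difference. At an unadjusted p below 0.05, 0 of the 15 receptors that did not pass would have been called. Siglecf, known from eosinophils, and Siglece were too dim to test.

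Of the 18 NLR genes taken by their symbol only 4 were bright enough to test. Nlrx1, a mitochondrial NLR, was higher, at 1298, 1146 and 1079.9 in the CNOT3KO mice, against 669.9, 947 and 629.5 in the WT mice (log2 difference 0.65, SE 0.16, limma adjusted p = 0.00959). Nlrc5, the transactivator of MHC class I genes, read 1398, 1032 and 1420.0 in the CNOT3KO mice, against 1191, 1006 and 849 in the WT mice. It did not pass (limma adjusted p = 0.134), although it did with array weights (log2 difference 0.42) or without CNOT3KO mouse 2 (0.48). Nlrp3, the sensor of the best studied inflammasome, read 84.6, 88.1 and 127 in the CNOT3KO mice, against 64.6, 78.8 and 84.8 in the WT mice (95% interval of the log2 difference -0.17 to 0.77). Nlrp6, known from gut epithelium, read 74.1, 26 and 97.6 in the CNOT3KO mice, against 102, 37.1 and 79.4 in the WT mice, and like Nlrp3 and Nlrc5 its groups overlapped. The 14 that were too dim include Nlrc3, Nlrp10, Nlrp12 and the Nlrp4, Nlrp5, Nlrp9 and Nlrp14 genes, several of which are known from oocytes. Nlrp9a, one of these, read 7.32, 35.1 and 10.2 in the CNOT3KO mice, against 56.1, 63.4 and 58.9 in the WT mice and was called lower with no filter on dim genes (log2 difference -1.10).

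Partners of the NLRs were measured too, among them the adaptor and the caspases of inflammasomes. The list also held Nod1, Naip2, Naip5, Naip6 and Ciita, which are NLR genes that the symbol rule did not take. Of 16 tested genes in the list 6 were higher, 2 lower and 8 did not pass. Naip2 was among the higher ones, while Nod1, Naip5, Naip6 and Ciita did not pass. Pycard, the adaptor ASC that links sensors to caspase 1, read 2187, 2136 and 2032 in the CNOT3KO mice, against 467, 397 and 551 in the WT mice (log2 difference 2.13, SE 0.13, limma adjusted p = 1.0e-05). Casp1, the caspase that cleaves pro-interleukin 1 beta, read 1530.2, 1662 and 1636 in the CNOT3KO mice, against 588, 515 and 504 in the WT mice (2.93-fold). Casp4, which senses lipopolysaccharide in the cytosol, was 2.85-fold, and Naip2, which recognises a rod protein of bacterial secretion systems, 2.72-fold. Casp8, an initiator caspase of cell death, and Gsdmd, the pore-forming substrate of the inflammatory caspases, were 1.71-fold and 1.42-fold, and the Gsdmd call was lost without CNOT3KO mouse 1 (log2 difference 0.42) or 2 (0.46) or WT mouse 2 (0.49). Nek7, a kinase that NLRP3 needs, was lower, at 0.677 of WT, and so was Xiap, an inhibitor of caspases, at 0.733, a call lost with all probe sets averaged (log2 difference -0.13). Il1b, the cytokine gene downstream, read 94.9, 76.2 and 78.1 in the CNOT3KO mice, against 93, 77.8 and 88.9 in the WT mice and did not pass.

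Receptors that signal through an ITAM or a related motif and receptors with an ITIM were also counted by their known signalling. Of 12 tested activating receptors 9 were higher, 0 lower and 3 (Clec4n, Clec5a and Siglech) did not pass, with a median log2 difference of 1.45. Of 6 tested inhibitory receptors 2 were higher (Clec4a2 and Cd300a), 0 lower and 4 (Fcgr2b, Siglecg, Cd300lf and Siglec1) did not pass, with a median of 0.22. Siglec1 stands in that list although its known signalling does not rest on an ITIM. Fcer1g, a signalling chain that receptors share, is counted among the 12 activating ones, and Clec4b1, which was higher, stands in neither list. The difference between these counts was not tested.

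Of 31 tested genes of ITAM and ITIM signalling 16 were higher, 2 lower and 13 did not pass. Tyrobp, the ITAM adaptor DAP12, read 9788, 11198 and 8248 in the CNOT3KO mice, against 2469, 1721 and 2819.5 in the WT mice (log2 difference 2.07, SE 0.18, limma adjusted p = 4.8e-05), or 4.19-fold. Syk, the kinase that ITAMs recruit, read 577, 659 and 353 in the CNOT3KO mice, against 227, 282 and 328 in the WT mice (log2 difference 0.84, SE 0.22, limma adjusted p = 0.0144), a call lost without CNOT3KO mouse 1 (0.76) or WT mouse 1 (0.71). The adaptors Blnk, Vav3 and Pik3ap1 were 4.56-fold, 3.57-fold and 2.92-fold. Ptpn6, the phosphatase SHP-1 that ITIMs recruit, was 1.69-fold (log2 difference 0.75, or 1.54 with another probe set). Ptpn11, the related phosphatase SHP-2, was lower, at 2557, 2983 and 2622 in the CNOT3KO mice, against 4954, 5961 and 5823 in the WT mice (log2 difference -1.03, SE 0.11, limma adjusted p = 1.4e-04), but with all probe sets averaged its log2 difference was -0.35 and not called. Sh2b3, an adaptor that restrains kinases, was lower at 0.755 of WT, a call that was lost without any 1 mouse other than CNOT3KO mouse 2 (log2 difference -0.44 to -0.33), with the mouse number as a block (-0.41, limma adjusted p = 0.0622), with no filter on dim genes (limma adjusted p = 0.0662) and with eBayes without a trend (limma adjusted p = 0.0622).

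Of 10 tested sensors of RNA and DNA in the cytosol 7 were higher, 0 lower and 3 did not pass. Zbp1, which binds left-handed nucleic acid, read 624, 387 and 556 in the CNOT3KO mice, against 98.6, 96.3 and 66.7 in the WT mice (4.92-fold). Oas1a, which makes oligoadenylates on duplex RNA, was 3.07-fold, Dhx58, a relative of RIG-I, 2.55-fold and Ifih1, the sensor MDA5, 1.41-fold. Over all partner lists 45 of 97 tested genes were higher, 7 lower and 45 did not pass, beside the 23.2% and 16.9% of all tested genes, with a median log2 difference of 0.41.

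**Figure D3:**
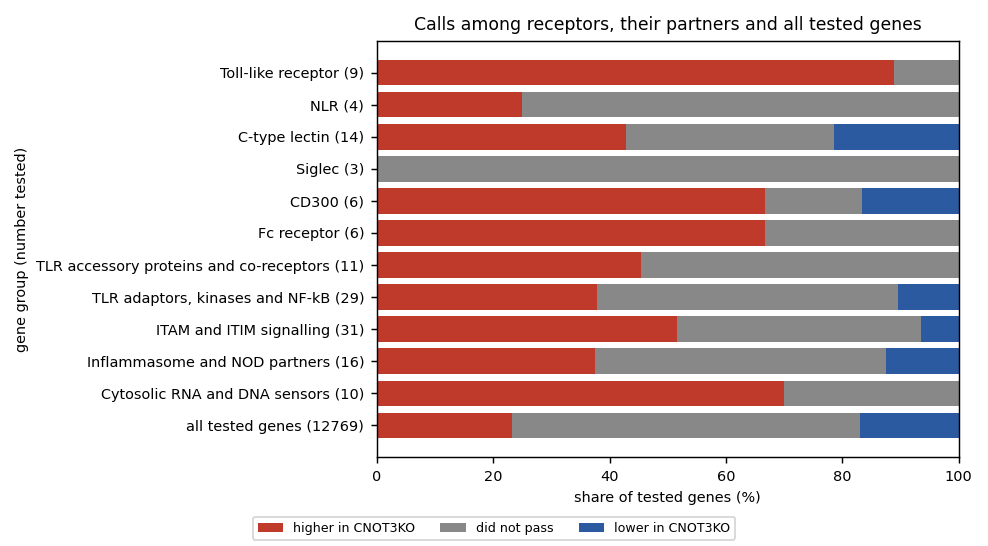
Share of tested genes (%) called higher in CNOT3KO (red), not past the test (grey) and called lower (blue) in each receptor family, each list of partner genes and all 12769 tested genes, with the number tested in brackets. The red share is 8 of 9 in the TLRs and 0 of 3 in the Siglecs, beside 23.2% of all tested genes.

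The receptors that were higher varied among mice in a common order. Of the 23, 19 had their lowest CNOT3KO value in mouse 3 and 13 their highest in mouse 2, and 18 had their lowest WT value in mouse 2. The macrophage markers were ordered alike. Their sum was 105504, 115808 and 84266 in CNOT3KO mice 1, 2 and 3, against 50309, 43510 and 51932 in WT mice 1, 2 and 3, and 15 of 18 markers were lowest in mouse 3 among the CNOT3KO mice. Of the receptors that did not pass, Tlr4, Fcgr2b, Fcgrt, Siglec1 and Siglecg were also lowest in CNOT3KO mouse 3, while others, Clec4n and Nlrc5 among them, were not. The share of all tested genes with this order was not counted. The part of macrophage content in the receptors' differences was not tested. Without CNOT3KO mouse 3, 24 receptors were called higher, and without WT mouse 2, 20 were.

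**Figure D4:**
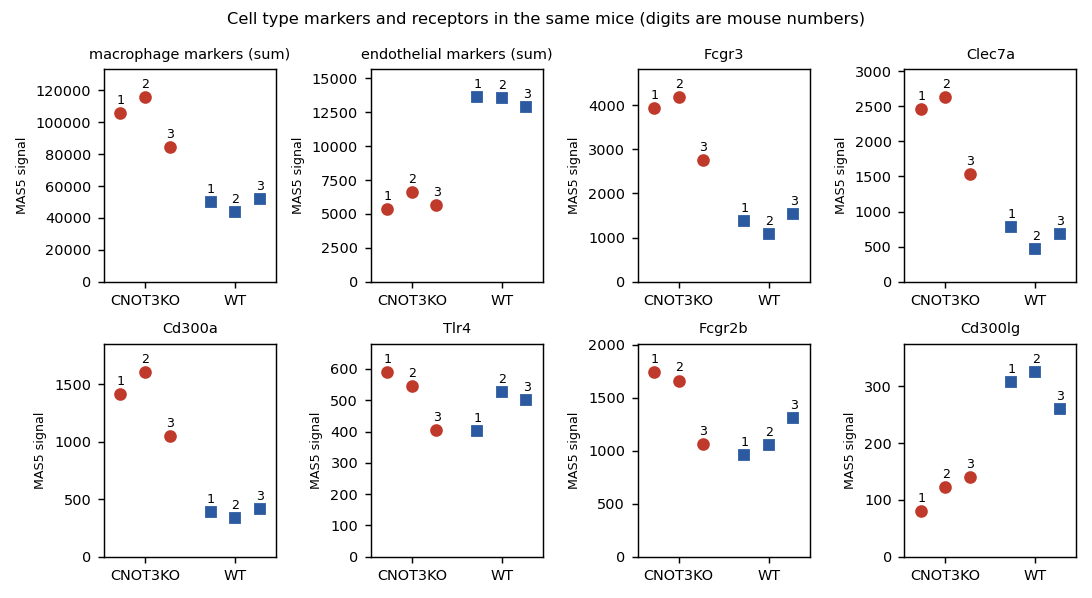
MAS5 signal, from 0, of 18 macrophage and 12 endothelial markers (each summed) and of 6 receptors in each mouse, with red circles for CNOT3KO, blue squares for WT and the mouse number beside each point. CNOT3KO mouse 3 is the lowest of its group for the macrophage sum, Fcgr3, Clec7a, Cd300a, Tlr4 and Fcgr2b, and the endothelial sum and Cd300lg are lower in every CNOT3KO mouse than in every WT mouse.

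Markers of other immune cells moved less evenly. Of 3 tested neutrophil markers 0 passed (summed signal of the 9 on the array 613 to 659.9 in CNOT3KO and 667 to 837 in WT), of 7 T and NK cell markers 1 (Klrd1) was higher (sum of 10 on the array 1099 to 1562 in CNOT3KO and 981 to 1084 in WT), and of 5 B cell markers 2 (Ms4a1 and Cd79b) were lower (sum of 8 on the array 5616 to 7412 in CNOT3KO and 4903 to 10149 in WT). Most of the B cell sum was the signal of Ighm (5403 to 7122 in CNOT3KO and 4570 to 9434 in WT), which did not pass. The Ms4a1 call was lost without WT mouse 2 (log2 difference -1.42). The Cd79b call was lost without CNOT3KO mouse 3 (-0.63) or WT mouse 2 (-0.96) or 3 (-0.98) and with the mouse number as a block (limma adjusted p = 0.0607). It was also lost with an offset of 1, no filter on dim genes, quantile normalization, all probe sets averaged and eBayes without a trend. Ms4a1 and Cd79b were bright enough to test only through the WT mice (means of 178 and 105, against 39.4 and 41.3 in CNOT3KO). Of 8 dendritic cell markers Itgax and Irf8, both also made by macrophages, were higher, Itgae was lower (a call lost without any 1 mouse other than WT mouse 3, log2 difference -0.46 to -0.34, and with the mouse number as a block, limma adjusted p = 0.0553) and 5, Siglech among them, did not pass, and the sum of the 10 on the array was 2103 to 2877 in CNOT3KO and 1464 to 1624 in WT. Of 10 adipocyte markers 3 (Lep, Cidec and Plin4) and of 8 mesothelial markers 4 were lower, with sums of 138316 to 166939 in CNOT3KO and 157543 to 198937 in WT for the adipocyte markers and of 3044 to 4370 in CNOT3KO and 4978 to 6192 in WT for the mesothelial ones. All 5 eosinophil markers on the array, Siglecf among them, and all 7 epididymis and sperm markers were too dim to test. Beside these marker counts, 23.2% of all tested genes were higher and 16.9% lower.

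Several genes were read by more than 1 probe set. Of the 8 receptors with several bright enough to test, 5 had the same call from each (Clec4a2, Clec4n, Fcgr1, Fcgr2b and Tlr4), 3 had 1 probe set called and another not (Clec14a, Clec1a and Tlr3), and 0 had opposite calls. The 32 receptors too dim to test read at most 101 on any array, and without the filter 1 of them was higher (Fcer1a) and 1 lower (Nlrp9a). In that fit 26% of all 18193 genes were called in either direction.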

How the data were processed

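The authors deposited MAS5 signal intensities on a linear scale, 1 per probe set and array, made from biotin-labelled RNA (500 ng), per the labels' protocols and the submitters' processing notes. The version and target level of MAS5 were not stated in the labels. Trimmed means of the arrays agreed to within 0.0711%, so they had been scaled by the authors. Array medians were 82.1 to 92.9. MAS5 subtracts mismatch probes, which makes dim signals noisy on a log scale.

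Groups came from the sample titles. The annotation gave 1 gene symbol to 34945 of 45037 probe sets, more than 1 to 932 and none to 9160. A gene's probe set with the highest mean signal stood for it, and genes with a mean below 51.6 (the 40th percentile over probe sets) were left untested. limma 3.58.1 in R 4.3.3 compared log2 of the signal after adding 22.5, the lower quartile of the data, using a trended eBayes. Its two-sided p-values were adjusted by Benjamini-Hochberg over 12769 genes. The procedure was tested on simulated data with independent noise and far fewer changed genes than were called here. That test does not show how it performs where many genes move together. With 3 mice a group, the number of arrays limits the precision. All 74 genes had their Entrez number in a RefSeq table (GRCm38.p6), used for names and gene order.

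The members, the partner lists, the markers and the alternatives were chosen with earlier results of these data known. Any tested member may be named. Of the partner lists up to 4 genes with the largest change in each direction are named, with Myd88, Cd14, Tyrobp, Syk, Pycard and Casp1, and Rela, Unc93b1, Il1b, Lbp, Ptpn6, Casp8, Gsdmd and the single markers were chosen after their values were seen. Of 116 listed partner symbols 101 were matched, 3 (Rigi, Mb21d1 and Tmem173) are other names of Ddx58, Cgas and Sting1, which were, and the remainder were not analysed here. Alternatives covered the offset, filter, normalization, probe sets, eBayes settings, array weights, a replicate block, thresholds and each mouse left out.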

Additional observations from a re-analysis of the deposited data

How the results depend on the processing

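Of the 27 receptors called, 22 kept their direction and call in all 18 other fits in which they were tested, and the 5 that lost it in at least 1 fit were Clec10a, Clec14a, Clec1a, Tlr3 and Tlr7. Fcgr2b and Nlrc5 gained a call in some. No called receptor changed sign in these fits. Of the called partners and markers named, Lbp did, at a log2 difference of -0.45 with all probe sets averaged, against 0.43, so its probe sets disagree. The number of receptors higher, 23, was 20 to 24 when 1 mouse was left out and 17 to 25 elsewhere. The number lower, 4, was 2 to 4 when 1 mouse was left out (2 without CNOT3KO mouse 1), 2 at an adjusted p below 0.01 and 2 with at least 2-fold asked for as well. Partner genes higher, 45, were 34 to 46 with 1 mouse left out and 21 at 2-fold. Partner genes lower, 7, were 4 to 7 with 1 mouse left out (4 without WT mouse 2), 4 at 0.01, 1 at 2-fold and 12 with array weights. The causes were not tested, except that a stricter threshold calls fewer genes by construction. The mouse numbers do not pair the mice by the labels, and deviations of mice with the same number correlated at 0.04 to 0.11 over genes. With the mouse number as a replicate block, 23 receptors were higher and 4 lower, and 43 partners were higher and 8 lower, and Sh2b3, Cd79b and Itgae lost their calls. Signal limits what can be said of the 32 dim receptors.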
